A study of Mus musculus with 14 samples.

Results

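*Sox9*, *Kcnj2* and *Kcnj16* lie on chromosome 11 of the mouse at the borders of a gene desert, and the contacts of their promoters were followed in promoter capture Hi-C (PCHi-C) libraries of cranial neural crest cells (CNCCs). In PCHi-C, cross-linked chromatin is cut with HindIII, neighbouring ends are ligated, and ligation products with a promoter fragment, called the bait, are captured and sequenced. A bait was counted for a gene when a transcription start site of the gene (GENCODE vM21, mm10) lay in it. This rule gave 3 baits, 1 per gene, of 22171 baits in all, for 3 of 27514 genes with a start site in a bait. These baits held 185 of the 1345534 distinct pairs of fragments listed in the series.

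SOX9 is a transcription factor of the HMG-box family that cartilage needs in order to form and that acts early in the neural crest. In humans, deletions and translocations far upstream of *SOX9* are known from campomelic dysplasia and from Pierre Robin sequence, a jaw and palate condition, and the region between *KCNJ2* and *SOX9* is a textbook case of neighbouring topologically associating domains. *Kcnj2* and *Kcnj16* encode Kir2.1 and Kir5.1, subunits of inward-rectifier potassium channels.

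The libraries were made from 4 regions of E10.5 wild-type embryos, namely the frontonasal process (FNP), the first pharyngeal arch as its maxillary (Mx) and its mandibular (Md) part, and the second arch (PA2), from PA2 of E10.5 *Hoxa2* EGFP/EGFP embryos, which have no functional *Hoxa2*, and from the wild-type pinna, the outer ear that PA2 forms, at E12.5 and E14.5. Each of the 7 conditions had 2 libraries. Wild-type embryos were Wnt1::Cre;ROSA RFP, in which the *Wnt1* promoter drives Cre in premigratory crest, and the cells were sorted by RFP, whereas the knockout cells were sorted by GFP from the *Hoxa2* locus, so genotype and reporter cannot be told apart. All mice were of a mixed C57Bl/6J and CD1 background and cells of several embryos were pooled for a library. E14.5 tissue was dissociated with papain and E10.5 and E12.5 tissue with trypsin, so at E14.5 stage and enzyme cannot be told apart either. Pinna libraries are all later than E10.5 and all from tissue that PA2 forms, so stage and region are partly confounded. *Hoxa2*-expressing crest (PA2 and pinna) includes them, whereas *Hox*-negative crest (FNP, Mx and Md) is all E10.5, so *Hoxa2* status and stage are partly confounded too. The libraries of a condition are labelled as separate samples, and a p value below measures the spread between these libraries only. The lists hold contacts and no expression, so neither the identity of the sorted cells nor the loss of *Hoxa2* could be checked with marker genes.

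Each deposited list gives a pair of fragments and its CHiCAGO score, which rises as a pair has more reads than the distance-dependent background predicts. No list holds a score under 5, and a pair missing from a list was set to 0, which therefore means any score under 5. The lists hold no reads, so depth is unknown and a score has no counting interval. Between 113670 and 186248 same-chromosome pairs were listed per library, and the knockout libraries had the fewest, 113670 and 120854. In Md replicate 1 and E12.5 pinna replicate 2, whose names say that they were merged, 46.5% and 62.7% of listed pairs joined different chromosomes, against 2.64% to 5.61% in the other 12 libraries, and results are given without them where that changes a direction. A summed score below is the sum of the scores of all listed fragments of a bait in a stretch of the chromosome, and a library without any has 0. Distances run between the middles of the bait and of the fragment.

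The *Sox9* bait (chr11:112780804-112792497, 11694 bp) holds the start site of *Sox9* at 112782224 and that of BC006965, a noncoding transcript that runs the other way. The *Kcnj2* bait (chr11:111065830-111066484, 655 bp) holds its only annotated start site at 111066164. The *Kcnj16* bait (chr11:110962571-110971163, 8593 bp) holds 2 of its 4 annotated start sites, the first at 110968033. All 3 genes are on the plus strand. *Kcnj16* and *Kcnj2* start 98.1 kb apart, and 1716 kb separate the start sites of *Kcnj2* and *Sox9*, an interval in which the annotation has no further protein-coding gene. "Lower side" below means towards smaller coordinates, which is upstream of each gene, and for *Sox9* is the desert and *Kcnj2*.

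*Sox9* was listed with distant fragments of the desert in every library and with almost nothing nearby. Of its 210 same-chromosome entries over the 14 libraries, 190 (90.5%) lay more than 1 Mb away on the lower side, 12 lay within 1 Mb on that side and 8 within 1 Mb on the other side. None lay more than 1 Mb away on the higher side. These distant contacts numbered 9 to 22 fragments per library, with a median of 14, and their summed score ranged from 85.5 to 239 with a median of 140. They made up between 87.2% and 100% of the same-chromosome score of the bait. The nearest fragment ever listed was 373 kb away, on the higher side, and the nearest in the desert was 824 kb away.

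Few baits were like this. The mean summed score over 1 Mb was 141 ± 40.3 (SD, n = 14) for *Sox9*, and the median over all 22171 baits was 4.93. That placed *Sox9* 310th, above 98.6% of baits. Among the 4907 baits with at least 5 same-chromosome contacts in every library, the share of the score that came from over 1 Mb was 94.4% for *Sox9* and 5.75% at the median, and 7.44% of these baits had a nearest contact as far away as that of *Sox9*. The bait also had 4 fragments over 1 Mb away that all 14 libraries listed. Only 1.04% of baits (230) had at least 1 such fragment, and 57 baits had at least 4. These are ranks and carry no test.

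These distant contacts comprised 29 fragments, of which 5 were listed in a single library and 24 in at least 2. The 24 fell into a pair of runs of neighbouring fragments. The nearer run, chr11:111620492-111674013, lay 1117 to 1166 kb from the bait, and 11 of its 12 HindIII fragments were listed with *Sox9*. The farther run, chr11:111530594-111565471, lay 1226 to 1256 kb away, and 14 of its 16 fragments were listed. Neither run overlaps an annotated gene.

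The nearer run held all 4 fragments that every library listed, and they lie side by side. The highest score was that of chr11:111649959-111654989, with 20.3 ± 4.25 (SD, n = 14) and a range of 12.8 to 29.1. The adjoining chr11:111645578-111649958 had 16.3 ± 3.96 (range 11.4 to 25.5), and chr11:111654990-111657231 had 14.6 ± 4.07 (range 7.22 to 20.2). The last of the 4, chr11:111657232-111657658, is only 427 bp long and had a mean of 10.46 ± 3.43 (range 5.87 to 17.6). The next fragment, chr11:111657659-111658372, was listed in 13 libraries with a mean of 14.03.

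The first 300 bases of that shortest fragment are shown because it is the smallest piece of the desert that every library joined to *Sox9*. Capitals mark the HindIII end at its lower coordinate. Which of its ends was joined is not given by the lists. The sequence is the plus strand of GRCm38.
chr11:111657232-111657531: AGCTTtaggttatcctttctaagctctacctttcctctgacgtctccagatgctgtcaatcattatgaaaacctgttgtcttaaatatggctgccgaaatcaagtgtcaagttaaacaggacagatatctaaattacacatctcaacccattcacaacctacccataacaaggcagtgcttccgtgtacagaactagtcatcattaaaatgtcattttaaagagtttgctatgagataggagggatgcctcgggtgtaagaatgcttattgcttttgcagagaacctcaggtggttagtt

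**Figure D1:**
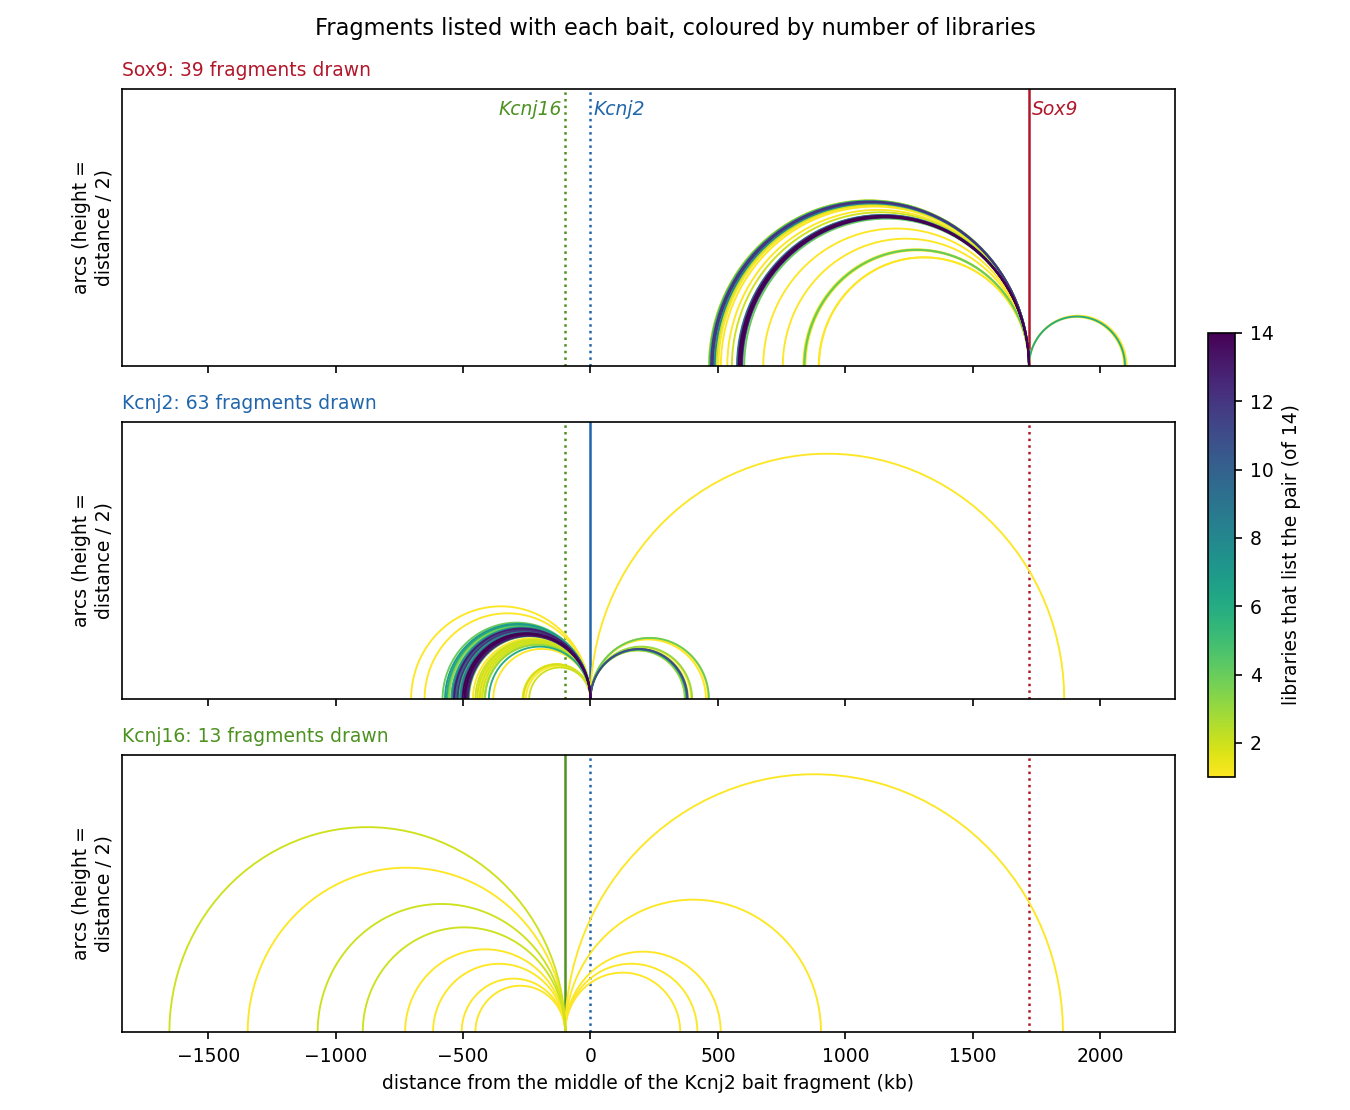
Fragments listed with the *Sox9*, *Kcnj2* and *Kcnj16* baits, drawn as arcs over the distance in kb from the middle of the *Kcnj2* bait; colour gives the number of libraries, of 14, that list the pair, and vertical lines mark the baits. *Sox9* reaches into the desert as far as a point 465 kb from *Kcnj2*, where the desert contacts of *Kcnj2* end, apart from 1 fragment beyond *Sox9* listed in 1 library; 1 fragment of *Kcnj2* and 2 of *Kcnj16* lie beyond the plotted range.

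*Kcnj2* was listed mostly in the opposite direction. Of its same-chromosome entries over the 14 libraries, 252 (84.3%) lay within 1 Mb on the lower side, away from the desert, and 45 (15.1%) lay within 1 Mb on the desert side. Only 1 entry lay over 1 Mb away on each side, each in 1 of the merged libraries. On the lower side each library listed 12 to 25 fragments, with a summed score of 84.7 to 200 and a median of 144. Its summed same-chromosome score, 160 ± 36.3 (SD, n = 14), was close in size to the 150 ± 43.9 of *Sox9*, but 0.471% of it came from over 1 Mb away.

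The main run of *Kcnj2*, chr11:110485503-110590200, lay 477 to 580 kb away and passed over *Kcnj16* without listing it. It held 38 HindIII fragments, of which 29 were listed. The run starts in *Map2k6*, which encodes a kinase upstream of p38, and goes past its end over the noncoding gene Gm11682. The fragment with the Gm11682 start site, chr11:110543973-110545780, was listed in 12 libraries with a highest score of 13.1. All 14 libraries listed 3 adjoining fragments, of which chr11:110573919-110574872, 492 kb from the bait, had the highest mean score with 13.8 ± 3.79 (SD, n = 14, range 7.87 to 18.7). The others were chr11:110567197-110573918 with 12.4 ± 3.88 and chr11:110562906-110567196 with 8.01 ± 2.23. The start of the fragment with the highest mean is shown, with its HindIII end in capitals, as the piece of this run with the highest mean score.
chr11:110573919-110574218: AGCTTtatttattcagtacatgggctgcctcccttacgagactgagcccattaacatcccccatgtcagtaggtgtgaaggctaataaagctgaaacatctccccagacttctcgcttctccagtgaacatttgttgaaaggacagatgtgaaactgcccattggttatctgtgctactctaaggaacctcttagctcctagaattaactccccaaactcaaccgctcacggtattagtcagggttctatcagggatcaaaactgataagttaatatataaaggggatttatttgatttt

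On the desert side, *Kcnj2* was listed with a run 370 to 399 kb away, chr11:111435736-111466662, in 13 of the 14 libraries, with a summed score of up to 30.4. The fragment of this run with the highest mean score, chr11:111446294-111447395, was listed in 11 libraries with a highest score of 9.72 and was missing in knockout replicate 2, E12.5 pinna replicate 1 and E14.5 pinna replicate 1. Beyond it, the last fragment before *Sox9* was chr11:111530594-111531034, 465 kb from *Kcnj2* and 1256 kb from *Sox9*. This was the only fragment listed with both genes, 1 of the 39 of *Sox9* (2.56%) and 1 of the 64 of *Kcnj2* (1.56%). It was listed with *Kcnj2* in 4 libraries, at 5.09 in FNP replicate 1, 5.99 in Mx replicate 1, 5.66 in knockout replicate 1 and 6.12 in E14.5 pinna replicate 2. It was listed with *Sox9* in 2 of those 4, at 6.51 in FNP replicate 1 and 5.80 in E14.5 pinna replicate 2. All these scores sit near the lowest that a list can hold. The start of this fragment is shown because the listed desert contacts of *Kcnj2* end and those of *Sox9* begin there.
chr11:111530594-111530893: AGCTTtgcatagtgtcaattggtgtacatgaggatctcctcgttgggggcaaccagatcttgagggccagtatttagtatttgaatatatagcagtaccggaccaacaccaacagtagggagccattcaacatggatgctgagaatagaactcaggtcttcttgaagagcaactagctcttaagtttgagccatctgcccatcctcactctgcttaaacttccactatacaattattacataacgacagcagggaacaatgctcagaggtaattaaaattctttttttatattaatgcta

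*Kcnj16*, the gene next to *Kcnj2*, had few contacts. It had 18 same-chromosome entries in all, 0 to 3 per library, and 9 of the 14 libraries had any. Its mean summed score of 7.56 ± 7.27 (SD, n = 14) exceeded that of 11.4% of baits, whereas those of *Kcnj2* and *Sox9* exceeded that of 91.6% and 90.7%. Of its 15 same-chromosome fragments, 12 were listed in a single library and 3 in 2 libraries. Those 3 are themselves baits, of *Abca8b*, *Abca9* and 9930022D16Rik, with highest scores of 8.63, 5.87 and 5.23. ABCA8B and ABCA9 belong to a family of lipid transporters whose genes form a cluster upstream of the desert. *Kcnj16* and *Kcnj2* shared 2 fragments, 13.3% of those of *Kcnj16* and 3.13% of those of *Kcnj2*, and Mx replicate 2 alone listed them with *Kcnj16*. *Kcnj16* and *Sox9* shared 0. No library listed any of the 3 baits with each other.

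The farther desert run of *Sox9* held a pair of matches to the CTCF consensus, searched by name as a motif of 12 letters on both strands. None of the listed fragments of the nearer run held a match. Of the 9 *Sox9* fragments listed in at least 10 libraries, 1 held a match. CTCF is the zinc-finger protein found at many domain borders, and its motif has a direction. Over all same-chromosome fragments, 4 of the 39 of *Sox9* (10.3%), 2 of the 64 of *Kcnj2* (3.13%) and 0 of the 15 of *Kcnj16* held a match, against 2.38% of the 34414 HindIII fragments of chromosome 11 from 150 to 39060 bases long. Fragments differ in length, and among chromosome 11 fragments within 10% of the same length the share with a match ran from 0.562% to 8.35% for the 6 that hold one. The matches in the runs described above are shown with the motif in capitals, all as the plus strand of GRCm38. Not shown are the *Sox9* matches in chr11:111902665-111905224 and chr11:113164597-113174868, both with the motif on the plus strand. The first is in the main *Kcnj2* run and the second in its desert run, both with the motif on the minus strand, and the last 2 are in the farther *Sox9* run, on the minus and then the plus strand. A match is a description of letters and not a bound site.
chr11:110496272-110496331: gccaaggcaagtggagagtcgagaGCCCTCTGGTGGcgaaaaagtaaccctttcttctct
chr11:111445955-111446014: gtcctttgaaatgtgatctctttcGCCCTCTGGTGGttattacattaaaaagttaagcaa
chr11:111532632-111532691: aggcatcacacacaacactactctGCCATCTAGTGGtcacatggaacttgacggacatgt
chr11:111537818-111537877: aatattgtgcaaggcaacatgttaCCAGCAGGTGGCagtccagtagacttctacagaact

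The contacted fragments were otherwise of ordinary composition. The 9 *Sox9* fragments listed in at least 10 libraries had a median GC content of 39.4% and the 11 of *Kcnj2* 42.7%, and the median over chromosome 11 fragments was 43.0%. Repeats masked in the reference covered a median of 24.5% and 23.95% of them, and 24.6% over chromosome 11. All 118 same-chromosome fragments of the 3 genes coincided with a fragment of a HindIII digest of GRCm38 made in silico.

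Other baits on the far side of *Sox9* were also listed with its desert runs, though in fewer libraries. The bait of *Sstr2*, a somatostatin receptor gene, shared 8 fragments with *Sox9* in 8 libraries, with a highest score of 9.09. The bait of *Cog1*, which encodes a Golgi complex subunit, and *Slc39a11*, a zinc transporter gene, shared 7 in 6 libraries with a highest score of 9.27. A bait inside the desert that holds no annotated start site shared 8 *Sox9* fragments in 7 libraries, up to 7.07. The nearest of these, 737 kb from that bait, was chr11:113162454-113164596 on the higher side of *Sox9*, outside the desert runs. From the *Kcnj2* side, *Abca5* and *Map2k6* each shared 2 fragments in 2 libraries.

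The question of the design is whether these contacts differ between crest subpopulations, with stage or without *Hoxa2*. The distant summed score of *Sox9* was 174 and 153 in FNP replicates 1 and 2, 125 and 153 in Mx, 107 and 181 in Md, 143 and 138 in PA2, 85.5 and 85.6 in the knockout, 115 and 151 in the E12.5 pinna and 129 and 239 in the E14.5 pinna. The replicates of Md, and those of the E14.5 pinna, lay farther apart than any pair of wild-type condition means. Of its variance, 52.0% lay between conditions, which an exact permutation test over all 135135 ways to form 7 pairs did not set apart from other pairings (p = 0.386). Without E14.5 pinna replicate 1 the share was 80.7% (exact permutation p = 0.0368). *Hoxa2*-expressing libraries (PA2 and pinna) had 152 ± 44.1 (SD, n = 6) and *Hox*-negative libraries (FNP, Mx and Md) 149 ± 28.4 (n = 6; two-sided exact permutation p = 0.887). Pinna libraries had 158 ± 55.6 (n = 4) and E10.5 wild-type libraries 147 ± 24.4 (n = 8; exact permutation p = 0.646). Both differences turned on E14.5 pinna replicate 2, without which they were -13.6 and -15.0 in place of 3.65 and 11.8. The first was also below 0 without Mx replicate 1 (-1.02), without Md replicate 1 (-4.79) and without both merged libraries (-4.55). FNP had 163 ± 14.8 (n = 2) and the E10.5 arches (Mx, Md and PA2) 141 ± 25.2 (n = 6; exact permutation p = 0.321).

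**Figure D2:**
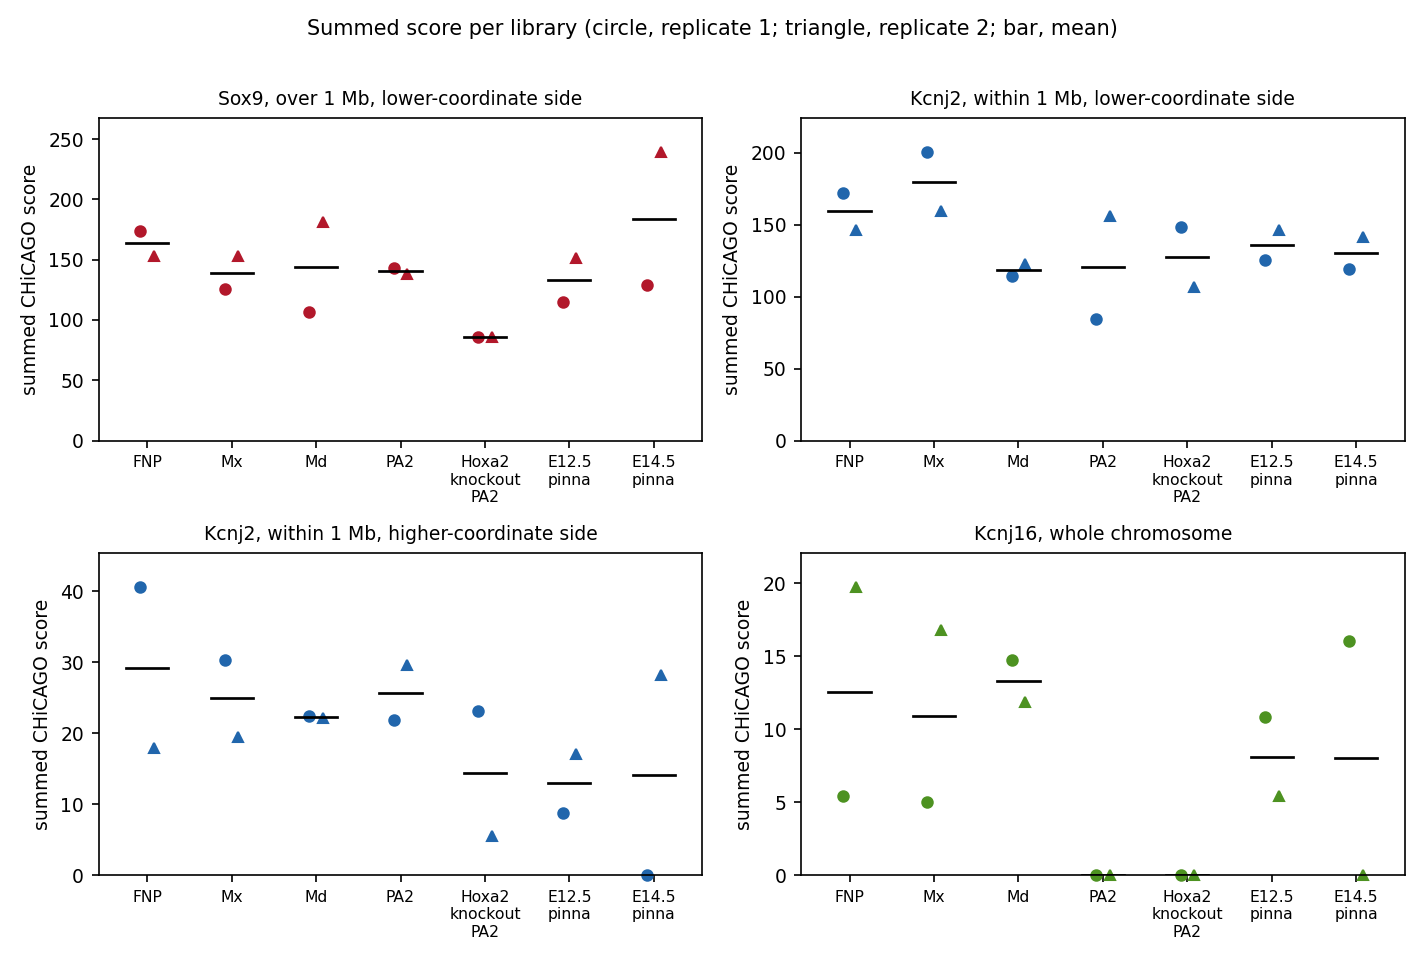
Summed CHiCAGO score per library (points) and mean per condition (bars) for the distant contacts of *Sox9*, both sides of *Kcnj2* within 1 Mb and all same-chromosome contacts of *Kcnj16*. The knockout libraries, at 85.5 and 85.6, are the lowest of the 14 for *Sox9* before scaling to library totals, and no same-chromosome contact of *Kcnj16* was listed in PA2 or the knockout.

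The knockout libraries had the lowest distant *Sox9* scores of the 14. Their mean was 85.6 ± 0.0566 (SD, n = 2) against 140 ± 3.47 (n = 2) in wild-type PA2, a difference of -54.8 on the score scale, and the groups did not overlap. Groups of 2 cannot give an exact permutation p under 0.333, and that was its p. In the genome-wide fit with limma of the summed score of each bait within or over 1 Mb on each side, on an asinh scale (log-like, with 0 kept at 0), the difference was -0.50 ± 0.23 (SE) with an adjusted p of 0.437. Over all 48460 bait stretches of that fit, 23.4% did not overlap and were lower in the knockout, and 0.739% passed an adjusted p of 0.05. The knockout libraries also list the fewest pairs. Scaled to the total same-chromosome score of each library, the distant *Sox9* score was 119 and 112 in the knockout and 155 and 144 in PA2, and the lowest of the 14 was then Md replicate 1 with 95.9. The part of library size in the difference was not tested further.

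The knockout values were the lowest of the 14 in the nearer run, at 57.9 and 64.2 in the knockout against 88.3 to 146 in the other 12 libraries. In the farther run the knockout had 27.6 and 21.4, inside the range of 6.83 to 80.6 of the others. These run scores were not scaled to library totals, and the knockout libraries had the lowest total same-chromosome scores, 821476 and 875948. The part of library size in the run scores was not tested. The fragment chr11:111654990-111657231 had 7.22 and 8.24 in the knockout and 17.0 and 18.7 in PA2. Its difference in the genome-wide pair fit was -0.84 ± 0.20 (SE, asinh scale) with a limma adjusted p of 0.0795, the smallest of the 19 *Sox9* pairs tested. In that fit, 0 of 19 *Sox9* pairs and 0 of 30 *Kcnj2* pairs passed, and 1 and 5 had an unadjusted p under 0.05, as did 16.7% of all pairs. Without PA2 replicate 2 or without knockout replicate 1, 1 pair passed, lower in the knockout. Without knockout replicate 2, 3 pairs passed, of which 1, a *Sox9* pair, was higher in the knockout. Over the genome, 2.16% of 161898 pairs passed and 22.4% did not overlap and were lower in the knockout.

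**Figure D3:**
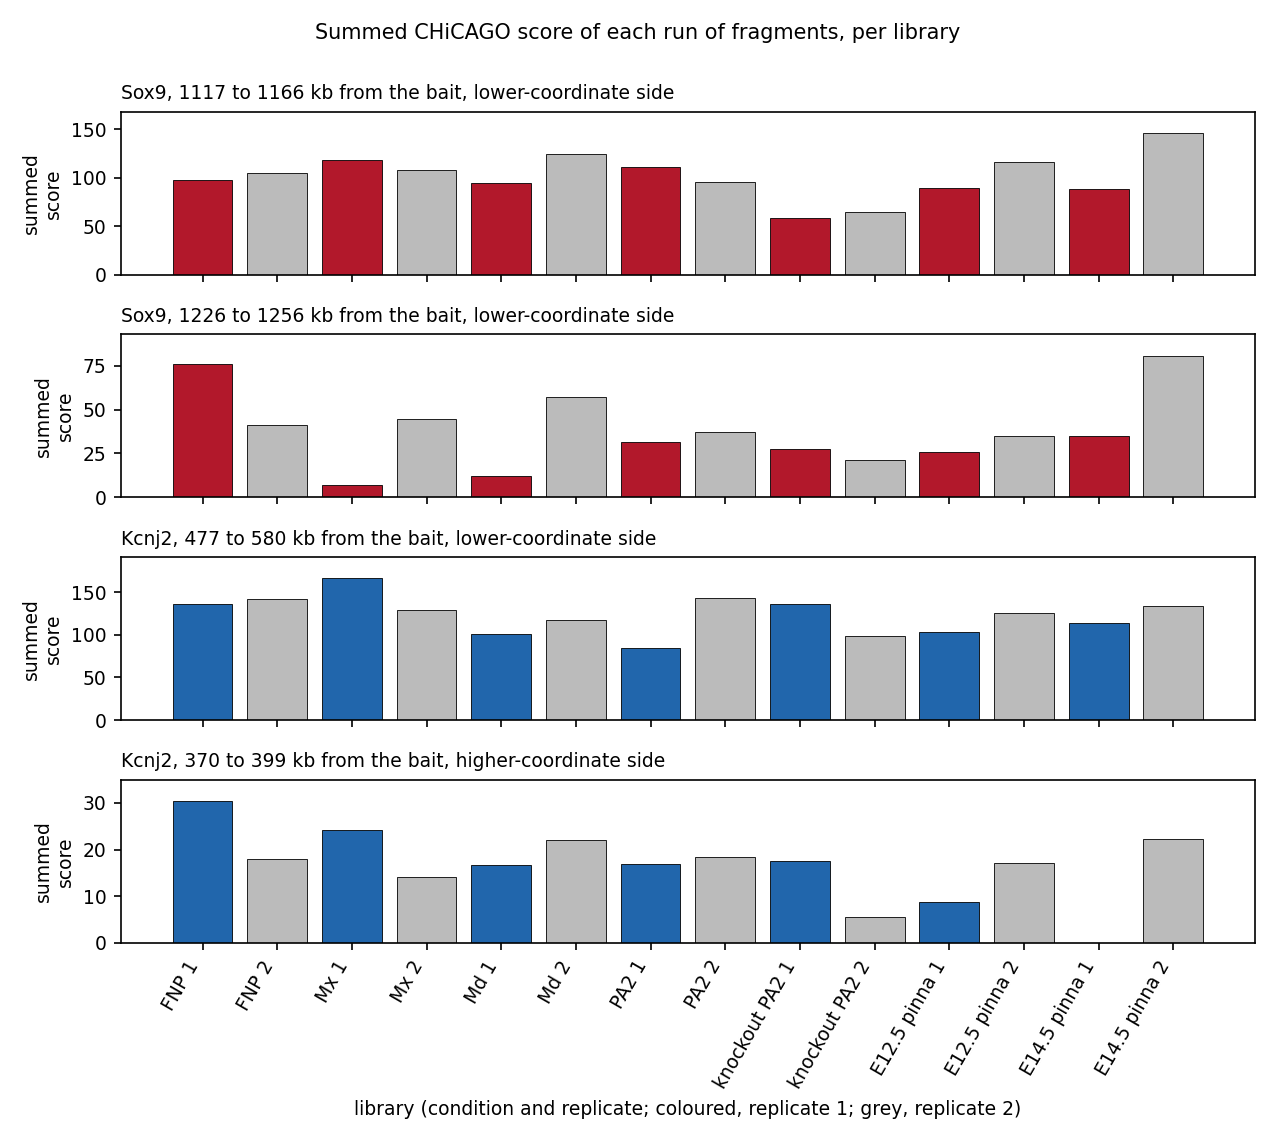
Summed CHiCAGO score of each run of fragments in each of the 14 libraries, for the nearer and the farther desert run of *Sox9* and the main and the desert run of *Kcnj2*. In the nearer *Sox9* run the knockout libraries, at 57.9 and 64.2, are below the other 12, while the farther run ranges from 6.83 in Mx replicate 1 to 80.6 in E14.5 pinna replicate 2. Scores are not scaled to library totals, which are lowest in the knockout.

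The runs differed in level and in their spread over libraries relative to that level. The main *Kcnj2* run had 124 ± 21.9, the nearer *Sox9* run 101 ± 23.0 and the farther *Sox9* run 38.0 ± 21.3 (SD, n = 14). The desert run of *Kcnj2* had 16.5 ± 7.76. In this order the SD was 17.7%, 22.7%, 56.1% and 46.9% of the mean. In the farther *Sox9* run replicates of a condition were often far apart, as with 6.83 and 44.6 in Mx and 12.4 and 56.9 in Md. Its most often listed fragments, chr11:111534402-111543432 and chr11:111544528-111545649, were each in 12 libraries. Their means were 7.94 and 7.36, in which a library without the fragment counts as 0. Their listed scores ran from 5.51 to 13.2 and from 5.30 to 12.3.

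**Figure D4:**
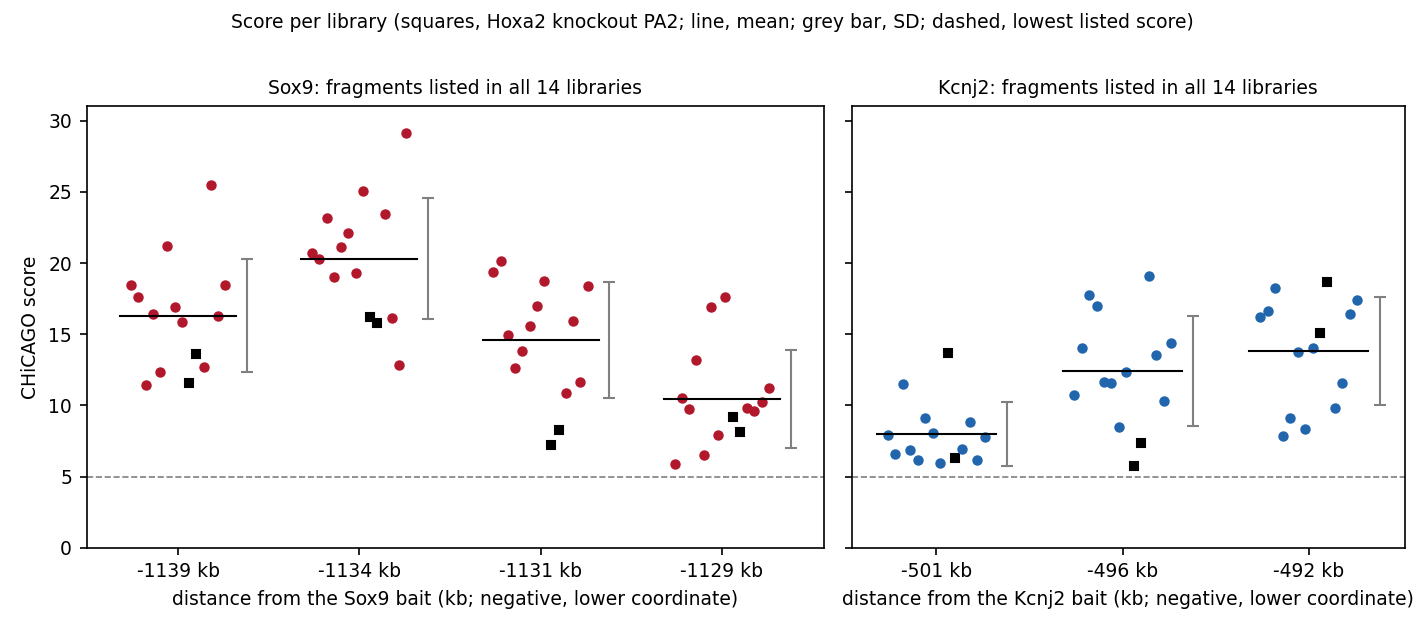
CHiCAGO score in each library of the 4 *Sox9* fragments and 3 *Kcnj2* fragments that all 14 libraries listed, placed by distance from the bait in kb; squares are the knockout libraries, lines the mean, grey bars the SD and the dashed line the lowest listed score. The *Sox9* fragment at -1131 kb has its lowest scores, 7.22 and 8.24, in the knockout.

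No summed score of *Kcnj2* passed the test in any comparison. Its lower-side summed score was 172 and 147 in FNP, 200 and 160 in Mx, 114.3 and 123 in Md, 84.7 and 156 in PA2, 148 and 107 in the knockout, 125 and 146 in the E12.5 pinna and 119 and 141 in the E14.5 pinna. The lowest value of the 14 and a value above the median were those of the PA2 replicates. The exact permutation p over the 7 conditions was 0.339, and *Hoxa2*-expressing libraries had 129 ± 25.5 against 153 ± 31.9 in *Hox*-negative libraries (SD, n = 6 each, exact permutation p = 0.190). On the desert side, pinna libraries had 13.5 ± 12.1 (SD, n = 4) and E10.5 wild-type libraries 25.5 ± 7.51 (n = 8), a difference of -11.99 with an exact permutation p of 0.0586, the lowest for any summed score of the 3 genes. The groups overlapped, since E14.5 pinna replicate 2 had 28.3 and E14.5 pinna replicate 1 had 0. Scaled to library totals the difference was -13.8 with p = 0.0303, and without E14.5 pinna replicate 2 it was -16.9 with p = 0.0121, both exact permutation tests. The genome-wide fit gave -1.29 ± 0.53 (SE, asinh scale) and a limma adjusted p of 0.186. *Kcnj16* had a summed score of 5.38 ± 6.78 in *Hoxa2*-expressing and 12.3 ± 6.02 in *Hox*-negative libraries (SD, n = 6 each, exact permutation p = 0.0931). That p was 0.0433 when each library was limited to an equal number of top-scoring pairs and 0.0346 without E14.5 pinna replicate 1, exact permutation tests both. Its same-chromosome score was 0 in both PA2 and both knockout libraries.

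At bait level, limma called 0 stretches of the 3 genes in any of the 4 comparisons, and 1, the desert side of *Kcnj2* in the pinna, had an unadjusted p under 0.05. The background was 0.223% of 46142 bait stretches between *Hoxa2*-expressing and *Hox*-negative libraries, 4.94% between pinna and E10.5 wild type and 0% of 36936 between FNP and the arches, where 5.41% had an unadjusted p under 0.05. At pair level 0 of 27 *Sox9*, 44 *Kcnj2* and 3 *Kcnj16* pairs were called between *Hoxa2*-expressing and *Hox*-negative libraries, against 0.0234% of 286702, and 2, 0 and 0 had an unadjusted p under 0.05, as did 6.49% of all pairs. Between pinna and E10.5 wild type 0 were called, against 0.984%, and 2, 3 and 0 had an unadjusted p under 0.05, as did 15.5% of all pairs.

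Between FNP and the E10.5 arches, 1 of 21 *Sox9* pairs and 2 of 41 *Kcnj2* pairs passed, all higher in FNP, with a limma adjusted p of 0.0172 each. Over the genome 1.57% of 215985 pairs passed and 1.25% passed and were higher in FNP. The *Sox9* fragment, chr11:111902665-111905224 at 883 kb, had 5.18 and 5.03 in FNP and was missing from the 6 arch libraries, a difference of 2.33 ± 0.39 (SE, asinh scale). The *Kcnj2* fragments were chr11:110523277-110524797, with 6.47 and 6.16 in FNP, and chr11:111435736-111436408, with 5.11 and 5.30, both missing from the arches, with differences of 2.54 ± 0.42 and 2.35 ± 0.39. Such a pair passed the filter only through FNP and had to differ, and on simulated data the same fit also called many unchanged pairs, so these 3 are a description. Every one of the 2703 pairs in the genome listed in both FNP and 0 arch libraries was called, and they were 79.6% of the calls. The *Sox9* fragment was listed again at 9.04 in E14.5 pinna replicate 2, and the desert fragment of *Kcnj2* at 5.77 in knockout replicate 1. With quantile normalization, with a stricter filter and without FNP replicate 1, 0 pairs of these genes were called, and without FNP replicate 2 the 2 called were others, lower in FNP.

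Contacts with other chromosomes seldom recurred between libraries. *Sox9* had 33 such entries, 31 of them in the merged libraries, each fragment in 1 library. *Kcnj2* had 25, of which 16 were in those libraries, and *Kcnj16* had 16, of which 9 were, beside its 18 same-chromosome entries. Only *Kcnj2* had fragments of other chromosomes listed in more than 1 library, 2 in all. A fragment of chromosome 6 was listed at 9.43 in knockout replicate 2 and 8.84 in E14.5 pinna replicate 2. A fragment of chromosome 18 was listed with *Kcnj2* in 7 libraries, at 11.3 and 40.1 in FNP, 33.3 in Md replicate 2, 17.4 in knockout replicate 2, 10.6 and 10.7 in the E12.5 pinna and 48.8 in E14.5 pinna replicate 2. The highest of these is above the 19.1 of any same-chromosome contact of *Kcnj2*. It was listed in 1 library or more of FNP, Md, knockout and pinna and in none of Mx and PA2, and whether its reads map uniquely was not tested.

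The flanking genes and the cartilage programme that SOX9 drives were set beside these genes. Of 8 flanking genes (*Abca5*, *Abca6*, *Abca8a*, *Abca9*, *Map2k6*, *Slc39a11*, *Cog1* and *Sstr2*), all were tested between pinna and E10.5 wild type, over 10 bait stretches, of which 2 were higher in the pinna and 0 lower (4.94% of all stretches were called). The lower-side score of *Abca8a* within 1 Mb was 33.9 ± 14.4 (SD, n = 4) in the pinna and 0.648 ± 1.83 (n = 8) at E10.5, a limma adjusted p of 0.00432. That of *Sstr2*, which points towards *Sox9*, was 78.8 ± 30.6 against 33.0 ± 13.4, an adjusted p of 0.0412 that passed 0.05 in 6 of 18 alternatives, not under quantile normalization or in most fits with 1 library left out. In the other comparisons 0 stretches of these genes were called, with 3 of 10 at an unadjusted p under 0.05 between *Hoxa2*-expressing and *Hox*-negative libraries, as were 12.7% of all stretches.

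Of 19 genes of the cartilage programme, from the partners *Sox5* and *Sox6* to the matrix genes *Col2a1*, *Acan* and *Comp*, all were tested, over 46 to 50 bait stretches. Between pinna and E10.5 wild type 2 of 49 were higher and 1 lower, near the 4.94% called of all stretches. Between *Hoxa2*-expressing and *Hox*-negative libraries 1 of 49 was higher, against 0.223% of all called. In the FNP and knockout comparisons 0 were called, with 2 of 46 and 5 of 50 at an unadjusted p under 0.05, as were 5.41% and 11.7% of all stretches. Those that rose were of baits with a start site of *Sox6*, a co-factor of SOX9 in cartilage. These baits are adjoining HindIII fragments, so they are not separate evidence. Each also holds a start site of another annotated gene, so the rise cannot be assigned to *Sox6* alone. Contacts over 1 Mb on the lower side of the bait shared with Sox6os had a summed score of 137 ± 50.1 (SD, n = 4) in the pinna. At E10.5 they had 28.3 ± 12.48 (n = 8), with a limma adjusted p of 7.33e-04. From the bait shared with 1110004F10Rik they had 153 ± 37.1 and 51.1 ± 22.2, with a limma adjusted p of 0.00395, or 0.0566 with no trend in the variance model. The first of these baits was also the one higher in *Hoxa2*-expressing libraries, with 107 ± 61.2 against 22.4 ± 6.19 in *Hox*-negative libraries (SD, n = 6 each, limma adjusted p = 0.0281), a call that held in 8 of 18 alternatives. Those *Hoxa2*-expressing libraries include the same 4 pinna libraries, and the *Hox*-negative ones are all E10.5. *Hoxa2* status and stage are therefore partly confounded in this call. The E10.5 PA2 libraries, at 40.4 and 51.7, lay above the highest *Hox*-negative value, 31.2, and below the lowest pinna value, 88.5. The part of each in this call was not tested. The stretch that fell was of a bait shared by *Col11a2*, a cartilage collagen gene, and 8 other annotated genes, so it cannot be assigned to *Col11a2*. Its summed score was 66.7 ± 26.3 in the pinna and 122 ± 22.5 at E10.5 (limma adjusted p = 0.0290), a call that held in 12 of 18 alternatives. The median difference of the cartilage stretches in the pinna was -0.21 on the asinh scale and that over all stretches -0.04.

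By the shape of their total over the 7 conditions, scaled to library totals, the baits most like *Sox9* were those of *Noc3l* and of Gm21982 with *Haus5*, with Pearson r of 0.965 and 0.961 over 7 condition means. Those most like *Kcnj2* were Gm23803, *Eif4g1* with Gm4462, and *Dusp13* with *Samd8* (r of 0.955, 0.950 and 0.948). These were the highest of 4907 baits and are a description only. *Kcnj16* had too few contacts to be compared.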

How the data were processed

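PCHi-C was carried out on 14 libraries of sorted mouse CNCCs, 2 per condition. According to their methods, the authors aligned and filtered the reads to mm10 with HiCUP and scored pairs of HindIII fragments with CHiCAGO. The deposited lists hold the CHiCAGO score of each pair at or above 5 and neither reads nor expression, so depth is unknown and the number of listed pairs stands in for it. How the 2 libraries named as merged were combined is not given in the sources used here. The submitters' processing notes also name bcl2fastq 2.17. No column of other samples was present (0).

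From the lists, pairs with a bait that holds a GENCODE vM21 start site of *Sox9*, *Kcnj2* or *Kcnj16* were taken, unlisted pairs were set to 0, and scores were summed within and over 1 Mb on each side of the bait. Single sums were compared by two-sided exact permutation tests over libraries (150 computed, 148 with a value, with no adjustment). All baits and all pairs of the genome were fitted on asinh of the score with limma (trended empirical Bayes) and Benjamini-Hochberg adjustment over the whole table. A pair had to be listed in at least 2 of the libraries compared. For the knockout comparison, whose fit used all 14 libraries, it had to be listed in at least 4 of the 14. A bait stretch had to hold a contact in at least 4 of the libraries fitted. Differences in asinh score from limma are given with their SE. Members, gene lists and tests were chosen with earlier results of these data known. Named fragments were those listed in all 14 libraries over 1 Mb away, those with the highest mean score per bait and distance class, and pairs past an adjusted p of 0.05. Other fragments, runs and the genes flanking them were named after their values had been seen. Alternatives were another score threshold, capped scores, equal numbers of top pairs, numbers of fragments, scaling to library totals, a limit of 0.5 Mb, another transformation, quantile normalization, a stricter filter, no trend, a replicate block and each library left out, and, chosen after seeing the data, both merged libraries left out. Sequences were read from RefSeq's GRCm38.p6. The fits were tested on simulated data, where the pair-level fit of FNP against the arches called many unchanged pairs, and fewer under the stricter filter. Python 3.11.15, pandas 2.3.3, NumPy 2.4.6, matplotlib 3.10.9, R 4.3.3, data.table (1.17.8) and limma 3.58.1 were used.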

Additional observations from a re-analysis of the deposited data

Results flagged for a closer look

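The distant summed score of *Sox9* in E14.5 pinna replicate 2 was 238.9, while the other 5 *Hoxa2*-expressing libraries (PA2 and pinna) lay between 115.2 and 151.3, which set it apart from them by Dixon's criterion at the 95% level. Of 20 groups of libraries examined in this way 1 was set apart, and chance sets apart about 1 in 20. The same library had the highest score of the 14 in both desert runs of *Sox9*, 146 in the nearer and 80.6 in the farther. It also had the highest total same-chromosome score of the 14. Scaled to library totals, its distant *Sox9* score was 189.8, against 123.2 to 155.2 in the other 5 *Hoxa2*-expressing libraries. FNP replicate 1 then had 190.2. Dixon's criterion was not applied to the scaled values. The part of library size or of the papain dissociation in this value was not tested further.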

How the results depend on the processing

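Of 346 alternatives to the 20 single values, 323 kept the direction and the side of the threshold, 18, in 8 of the values, turned the direction and 5 brought a value past it, and of 118 alternatives to the 8 counts of called pairs or stretches of the 3 genes 111 stayed within 1.5 times. For the distant *Sox9* score, leaving out the merged libraries gave -4.55 between *Hoxa2*-expressing and *Hox*-negative libraries, and a score threshold of 10 gave -7.64 between pinna and E10.5. With a limit of 0.5 Mb the lower-side *Kcnj2* differences were 2.67 for the pinna, -1.14 for FNP and -5.33 for the knockout, and by number of fragments the last was -1. On the desert side of *Kcnj2*, scaling gave -13.8 for the pinna and a threshold of 10 gave -2.07 for FNP. For *Kcnj16*, equal top pairs gave -5.98 between *Hoxa2*-expressing and *Hox*-negative libraries, and leaving out the merged libraries gave 0.55 for the pinna. The causes were not tested.

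Leaving out each library in turn, the distant *Sox9* score had 42.9% to 80.7% of its variance between conditions and differences of -13.6 to 11.1 for *Hoxa2*-expressing libraries and -15.0 to 26.2 for the pinna. *Kcnj2* ranged from -28.8 to 42.8 on the lower side for the knockout, and on the desert side from -16.9 to -7.47 for the pinna and from -6.39 to 16.3 for FNP. *Kcnj16* ranged from -9.00 to -5.38 for *Hoxa2*-expressing libraries, from -3.77 to 1.57 for the pinna and from -2.65 to 11.7 for FNP. Pairs of the 3 genes called ranged from 0 to 5 for FNP, where quantile normalization and the stricter filter also gave 0 in place of 3, and from 0 to 3 for the knockout.

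Over the genome, called pairs numbered 3397 for FNP and from 26 (stricter filter) to 4624, 67 for *Hoxa2*-expressing libraries and from 14 (without the merged libraries) to 227 (no trend), and 2820 for the pinna with up to 7929 (no trend). Called bait stretches numbered 358 for the knockout and from 100 (without PA2 replicate 2) to 583 (replicate block), 103 for *Hoxa2*-expressing libraries and from 9 (without Mx replicate 1) to 396 (without PA2 replicate 2), 2278 for the pinna and as few as 1097 (no trend), and 0 for FNP with up to 144 (without FNP replicate 2). Same-numbered libraries did not deviate together: over 159013 pairs the correlation of deviations was 0.00226 to 0.0690 in 21 pairs of conditions and over 0.1 in 0 of them. A replicate block left 3 called pairs of the 3 genes for FNP and 0 in the other comparisons, and permutation within the block gave p = 0.270 for *Sox9* over the conditions (exact permutation). As depth is unknown, a score of 0 cannot be told from one just under 5.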
